A study of Mus musculus with 2 samples.

Results

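A set of 9 transcription regulators that set the identity of cortical projection neurons were followed across whole fetal mouse brain. They were the rows of the deposited gene list with the symbols Tbr1, Bcl11b, Fezf2, Zfpm2, Cux1, Cux2, Pou3f2, Rorb and Bhlhe22, and all 9 were found among 55416 listed genes. The choice used names and no measured value. Their raw counts were read in barcodes that held 500 or more genes and drew no more than 5% of their counts from mitochondrially encoded genes.

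The study measured RNA of single nuclei from whole fetal brain of mice with 2 genotypes, wildtype and knockout of Cav1, which encodes the membrane protein caveolin 1, and each genotype has 1 library. Nuclei were isolated from frozen tissue and captured with the 10x Genomics 3′ assay, in which a unique molecular identifier (UMI) lets each captured RNA be counted once. The labels give the age only as fetal, and the knockout allele, the strain, the sex and the number of fetuses per library are not given in the sources used here. With 1 library per genotype no test between genotypes is possible, so intervals below are at 95% and cover counting error only. A level is given in CPM, the UMIs of a gene scaled to 1000000 UMIs of the nuclei summed, with an exact Poisson interval. A share of nuclei has an exact binomial interval. Where 2 values are given without a library name, the wildtype-labelled library comes first and the knockout-labelled library second.

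Cav1 itself had 71 UMIs, or 4.13 CPM, in the wildtype-labelled nuclei. It had 80 UMIs, or 4.02 CPM, in those labelled knockout. Since the labels do not say which part of the gene was removed, and 3′ counts can come from outside it, this level checks neither label. The filters kept 6686 of 9763 wildtype-labelled barcodes and 6680 of 10811 labelled knockout, holding 17205381 and 19878903 UMIs. The median kept nucleus held 2134 and 2366 UMIs. Between the libraries 43 deposited and 10 kept barcodes were the same sequence, and the counts of pairs and of members past 1.5-fold were the same without these. The hindbrain gene Hoxb3 stood at 0.17 and 8.80 CPM and the midbrain gene En1 at 3.02 and 10.5 CPM, so the libraries differed in their regional markers. The part of this in the ratios between libraries was not tested.

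Projection neurons of the cortex send axons out of the cortex or to other cortical areas, and their layer and target are set by a small network of transcription factors. In the deep layers Tbr1 marks corticothalamic neurons, while Fezf2 and Bcl11b direct the subcerebral fate, and several of these factors repress one another. In the upper layers Cux1, Cux2 and Pou3f2 mark neurons that mostly connect cortical areas, and Rorb marks the layer that receives thalamic input. Many of the factors also act outside the cortex, Bcl11b in the striatum for instance.

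In the GENCODE M39 annotation of the GRCm39 build, all 9 are protein-coding genes. Tbr1, a T-box factor, lies on chromosome 2 from 61633274 to 61644458, and Bcl11b, a zinc finger repressor, on chromosome 12 from 107876656 to 107970417. Fezf2, a zinc finger factor, lies on chromosome 14 from 10121574 to 10127680, and Zfpm2, a zinc finger cofactor of GATA factors, on chromosome 15 from 40518278 to 40970261. The cut-like homeobox genes Cux1 and Cux2 both lie on chromosome 5, from 136276755 to 136596408 and from 121994429 to 122188521. Pou3f2, a POU-domain factor, is on chromosome 4 from 22482780 to 22488366, the nuclear receptor gene Rorb on chromosome 19 from 18907969 to 19088585, and Bhlhe22, a basic helix-loop-helix factor of area identity, on chromosome 3 from 18108338 to 18111681. The opposite-strand gene Gm16599 lies within Cux1 and had 7734 and 8493 UMIs, more than Cux1 itself with 5462 and 5612. Whether the counting used strand is not given in the sources used here, so reads of Cux1 and this gene cannot be told apart for certain. The same holds for Cux2 and Gm3970, which had 245 and 222 UMIs.

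Because the neurons were selected by Neurod2 and Neurod6, basic helix-loop-helix factors that bind the E-box, the 250 bases before each annotated start were searched for its letters, CANNTG, which read the same on both strands. RefSeq start windows on the GRCm38.p6 build were found for 7 members, without Zfpm2 and Bhlhe22. Windows of 3 members are shown in lower case, 5′ to 3′ along the gene, with the E-box letters in capitals: the deep-layer gene Tbr1, and the upper-layer relatives Cux1 and Cux2, which were found together in the same nuclei.
Tbr1 (chr2:61804203-61804452, + strand): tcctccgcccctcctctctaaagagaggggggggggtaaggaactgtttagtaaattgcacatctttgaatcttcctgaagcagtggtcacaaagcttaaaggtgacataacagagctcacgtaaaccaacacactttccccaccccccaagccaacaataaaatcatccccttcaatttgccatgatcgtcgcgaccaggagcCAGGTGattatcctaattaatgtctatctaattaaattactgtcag
Cux1 (chr5:136565982-136566231, - strand): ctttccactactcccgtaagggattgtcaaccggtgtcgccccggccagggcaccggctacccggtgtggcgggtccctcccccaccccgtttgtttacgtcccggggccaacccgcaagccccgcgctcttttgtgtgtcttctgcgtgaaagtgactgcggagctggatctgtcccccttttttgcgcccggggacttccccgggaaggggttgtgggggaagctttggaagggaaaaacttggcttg
Cux2 (chr5:122049852-122050101, - strand): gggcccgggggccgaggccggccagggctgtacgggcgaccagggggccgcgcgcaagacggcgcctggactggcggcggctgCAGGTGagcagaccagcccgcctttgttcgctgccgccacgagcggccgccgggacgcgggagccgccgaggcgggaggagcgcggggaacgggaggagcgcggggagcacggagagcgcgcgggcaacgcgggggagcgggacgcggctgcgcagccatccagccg
The Tbr1 window and this first Cux2 window each hold 1 match, and the Cux1 window holds none. Second annotated starts of Cux2 and Rorb hold 2 matches each, and the windows of Bcl11b, Fezf2 and Pou3f2 hold none. Of all 32851 windows of this length, 66.2% hold at least 1 match. Of 7 members, 3 hold a match in any of their windows, Rorb only in its second. The first share counts windows and the second counts genes, so they are not in like units. A match describes the letters of the window and is not a binding site.

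Neurons were first selected as nuclei with at least 1 UMI of Neurod2 or Neurod6, which are switched on in newborn excitatory neurons of the cortex. The selection held 2779 wildtype-labelled nuclei (41.6%, 40.4 to 42.8%). It held 2369 labelled knockout (35.5%, 34.3 to 36.6%). With every nucleus thinned to 1000 UMIs and 846 and 1111 shallower nuclei left out, the shares were 22.9% and 19.2%. The selection was loose. In vascular and meningeal-like clusters, which should lack both genes, Neurod6 had a UMI in 21.1% of 190 and 17.2% of 215 nuclei, at median depths of 2474 and 2880 UMIs. The median depth of the selected nuclei was 2320 and 2694 UMIs.

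The nuclei were therefore also clustered on other genes, with the members, Neurod2 and Neurod6 left out of the clustering genes. Of 28 clusters, 4 had Neurod2 and Neurod6 together at least 1.5-fold above the other clusters in each library and a median depth of at least 0.4 of their library's. A shallow cluster led by haemoglobin genes also passed that fold, at 2.49 and 2.26, and was left out for its depth. The 4 Neurod-high clusters held 1367 (20.4%) and 1010 (15.1%) of the kept nuclei, and 37.1% and 33.2% of the selected nuclei. By rule they were given no cell type name, whatever other markers they held. The marker list for cortical excitatory neurons held only Neurod2 and Neurod6. The clusters are called here by genes among their leading ones. They were the Tg/Sox5 cluster with 414 and 327 nuclei, the Bcl6/Abcc8 cluster with 328 and 213, the Unc5d/Svet1 cluster with 522 and 382, and the smaller Slit3/Ifi203 cluster with 103 and 88. Sox5 is known for deep-layer neurons. The Unc5d/Svet1 cluster held 3 markers of the intermediate progenitor list at the fold used for names. Within the 4 clusters 75.4% and 77.8% of nuclei had a UMI of Neurod2 or Neurod6. These clusters were chosen after the counts were seen.

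At the level of all selected nuclei, the deep-layer members were found in very different shares of nuclei. Tbr1 had a UMI in 12.3% and 13.2% of nuclei, and Fezf2 in 7.34% and 7.68%. Bcl11b was found in 57.0% and 54.8%, and Zfpm2 in 30.1% and 35.0%. Of the upper-layer members, Cux1 was found in 46.9% and 47.2% and Cux2 in 31.9% and 34.3%. Pou3f2 was found in 445 (16.01%) and 438 (18.5%) nuclei, Rorb in 20.5% and 23.8%, and Bhlhe22 in 9.14% and 10.1%. At 1000 UMIs per nucleus, over 2476 and 2094 selected nuclei with 303 and 275 left out, these shares ran from 3.19% and 2.63% for Fezf2 to 37.2% and 32.3% for Bcl11b.

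The same shares were read in the vascular and meningeal-like clusters, where cortical factors such as Tbr1 and Fezf2 should be absent. At 1000 UMIs they held Tbr1 in 1.65% of 182 and 1.45% of 207 nuclei and Fezf2 in 0.549% and 0% (0 of 207 nuclei, an upper bound of 1.77%), against 4.36% and 5.11%, and 3.19% and 2.63%, of the selected nuclei. For both genes the intervals overlapped in the wildtype-labelled library and not in the knockout-labelled one. Cux2 was at 6.04% and 2.90% there, against 19.3% and 16.6%. Bcl11b was at 13.2% and 9.18%, against 37.2% and 32.3%, and Rorb at 2.75% and 3.86%, against 11.8% and 11.1%. Zfpm2 was at 27.5% and 23.2%, above its shares of 21.0% and 22.9% in the selected nuclei. Cux1 was at 20.9% and 18.8%, near its 26.3% and 23.8%. Pou3f2 was at 3.85% (1.56 to 7.76) and 4.35% (2.01 to 8.09), against 6.91% and 6.26%, and Bhlhe22 at 1.10% and 1.93%, against 3.27% and 3.30%. The intervals of Bcl11b, Cux2 and Rorb were apart in both libraries. Those of Zfpm2, Cux1, Pou3f2 and Bhlhe22 overlapped in both, so detection of these 4 did not set the selected nuclei apart from these clusters. For Zfpm2 that share is no floor, since its level differed widely between clusters, from 29.5 and 11.6 CPM at the lowest to 2973 and 3016 CPM at the highest.

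Detection of more than 1 member in a nucleus was common. At least 2 members were found in 68.4% and 69.5% of selected nuclei, and in 40.1% and 36.4% at 1000 UMIs. All 9 were found in 3 and 4 nuclei, and none in 271 (9.75%) and 223 (9.41%). A nucleus was sorted by whether it held a deep-layer member (Tbr1, Bcl11b, Fezf2 or Zfpm2), an upper-layer member (Cux1, Cux2, Pou3f2 or Rorb), or both. Both kinds were found in 51.3% and 52.8% of nuclei, deep-layer members alone in 20.3% and 19.5%, and upper-layer members alone in 17.96% and 17.7%. At 1000 UMIs the share with both fell to 25.0% and 21.1%, and the share with neither rose from 10.4% and 10.0% to 21.8% and 24.8%.

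Pairs were therefore compared with the number of nuclei expected if the 2 genes were found independently at the same depth, computed within 10 bins of total UMIs. A pair was called when observed over expected was at least 10% above or below 1 in both libraries. Of 36 member pairs, 8 were above and 4 below expectation among the selected nuclei. Over all genes tested with a member by the same rule, the share called above ranged from 2.57% with Bcl11b to 24.9% with Pou3f2, and below from 0.982% with Pou3f2 to 4.81% with Bhlhe22. Nuclei formed from 2 cells would add joint detections, and without the 8% of nuclei with the highest Scrublet doublet scores 10 pairs were above and 5 below. In Neurod-high clusters 6 pairs were above and 8 below. These clusters held only 1031 and 786 selected nuclei, and no share over all genes is given for them. Their counts therefore cannot be set beside those of all selected nuclei.

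Within the upper-layer group, Cux1 and Cux2 were found together in 590 nuclei against 471.9 expected and in 548 against 450.2. The ratios were 1.25 (1.15 to 1.36) and 1.22 (1.12 to 1.32). Cux2 and Pou3f2 shared 206 nuclei against 160.8 and 213 against 176.8, ratios of 1.28 (1.11 to 1.47) and 1.20 (1.05 to 1.38). Cux1 with Pou3f2 was at 1.12 (0.99 to 1.27) and 1.11 (0.98 to 1.25), near the median of 1.074 and 1.091 over the 12215 genes tested with Pou3f2. Cux2 was thus found with Cux1 and with Pou3f2 more often than matched depth gave. In Neurod-high clusters the ratios rose to 1.61 (1.41 to 1.83) and 1.66 (1.43 to 1.91) for Cux1 with Cux2. There Cux2 with Pou3f2 was at 1.45 and 1.502, and Cux1 with Pou3f2 at 1.34 and 1.33.

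Rorb, by role an upper-layer gene, did not follow the Cux genes. With Cux2 it was at 0.89 and 0.97 in the selected nuclei and at 0.63 (0.47 to 0.84) and 0.82 (0.61 to 1.08) in Neurod-high clusters. With the deep-layer gene Zfpm2 it was found in 280 nuclei against 229.0 expected and in 294 against 264.8, ratios of 1.22 (1.08 to 1.37) and 1.11 (0.99 to 1.24). In Neurod-high clusters that pair was at 1.26 and 1.24. In Neurod-high clusters Rorb was thus found more often with Zfpm2 than expected, with both intervals above 1. For Cux2 the interval held 1 in the knockout-labelled library.

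Of 16 pairs of a deep-layer and an upper-layer member, 3 were below expectation and 1, Zfpm2 with Rorb, above. Of all genes tested, 1.36% were called below with Zfpm2, 4.68% with Fezf2, 1.78% with Cux1 and 2.33% with Cux2. Called above were 8.46% with Zfpm2 and 14.9% with Rorb. Zfpm2 and Cux2 shared 256 nuclei against 328.2 expected and 300 against 361.5, ratios of 0.78 (0.69 to 0.88) and 0.83 (0.74 to 0.93). Fezf2 and Cux1 shared 88 against 110.0 and 68 against 102.0, ratios of 0.80 (0.64 to 0.99) and 0.67 (0.52 to 0.85). Fezf2 with Cux2 was at 0.83 (0.64 to 1.06) and 0.76 (0.58 to 0.99). The ratios were lower in Neurod-high clusters for Zfpm2, where Zfpm2 and Cux2 shared 56 nuclei against 108.3 and 50 against 97.3, ratios of 0.52 (0.39 to 0.67) and 0.51 (0.38 to 0.68). There Zfpm2 with Cux1 was at 0.64 and 0.60, Zfpm2 with Pou3f2 at 0.69 and 0.60, and Fezf2 with Cux2 at 0.60 and 0.71.

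**Figure D1:**
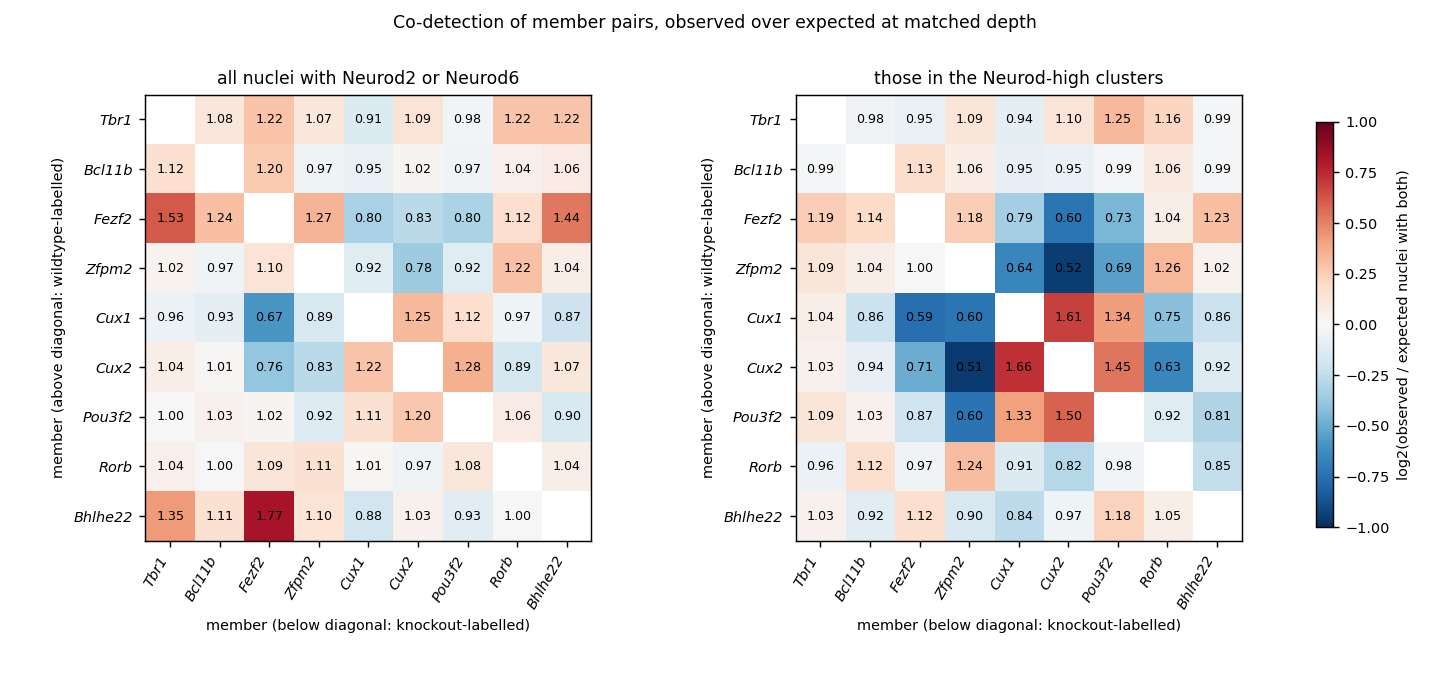
Observed over expected number of nuclei holding both genes of a pair, as cell colour (log2) and number, with the wildtype-labelled library above the diagonal and the knockout-labelled library below it. Left, all nuclei with Neurod2 or Neurod6. Right, those in the Neurod-high clusters, where Zfpm2 with Cux2 is at 0.52 and 0.51 and Cux1 with Cux2 at 1.61 and 1.66.

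The relation was not the same in every cluster. The counts within single clusters took all nuclei of a cluster, with or without a UMI of Neurod2 or Neurod6. They are therefore not parts of the counts above. Within the Unc5d/Svet1 cluster alone, Zfpm2 and Cux2 shared 17 nuclei against 33.7 expected and 14 against 30.2, ratios of 0.50 and 0.46. Within the Tg/Sox5 cluster, where Zfpm2 is common and Cux2 rare, they shared 35 against 33.8 and 33 against 33.4, ratios of 1.04 and 0.99. In the Bcl6/Abcc8 cluster they shared 5 against 5.74 and 3 against 3.01, and in the Slit3/Ifi203 cluster 9 against 10.3 and 10 against 9.17. The pair was thus well below expectation within 1 of the 4 clusters, with few joint nuclei in the last 2. Cux1 with Cux2 was at 1.12 and 1.10 within the Unc5d/Svet1 cluster and at 1.49 and 1.44 within the Bcl6/Abcc8 cluster.

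Among the deep-layer members, 2 of 6 pairs were above expectation and 0 below. Both pairs held Fezf2, with which 19.5% of all genes tested were called above, among the higher shares of the members. That share was 12.6% with Tbr1, 12.7% with Bhlhe22 and 2.57% with Bcl11b. Bcl11b and Fezf2 shared 156 nuclei against 130.2 expected and 140 against 113.4, ratios of 1.20 (1.02 to 1.40) and 1.24 (1.04 to 1.46). In Neurod-high clusters they were at 1.13 (0.92 to 1.37) and 1.14 (0.92 to 1.39). Tbr1 and Fezf2 shared 40 against 32.9 and 46 against 30.04, ratios of 1.22 (0.87 to 1.66) and 1.53 (1.12 to 2.04). Tbr1 and Bcl11b, which mark different deep-layer fates, were at 1.08 and 1.12, and in Neurod-high clusters they were at 0.98 and 0.99. Bhlhe22 was found with Fezf2 in 33 nuclei against 22.9 and in 40 against 22.6, ratios of 1.44 (0.99 to 2.02) and 1.77 (1.26 to 2.41). With Tbr1 it was at 1.22 (0.89 to 1.62) and 1.35 (1.01 to 1.76). With Cux1 it was at 0.87 (0.72 to 1.04) and 0.88 (0.73 to 1.06), called below though both intervals held 1. In Neurod-high clusters Bhlhe22 with Fezf2 was lower, at 1.23 (0.75 to 1.90) and 1.12 (0.71 to 1.68). There Tbr1 with Fezf2 was at 0.95 (0.61 to 1.42) and 1.19 (0.81 to 1.67), on either side of 1, and Tbr1 with Bhlhe22 at 0.99 and 1.03. The intervals of these pairs all held 1 in those clusters.

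Levels showed the same relation, though the group with 0 Zfpm2 UMIs is again set by the cut at 1 UMI. In selected nuclei with 0 Zfpm2 UMIs, Cux2 stood at 288 CPM (272 to 304) and 268 CPM (252 to 285). In those with 3 or more Zfpm2 UMIs it stood at 160.1 CPM (144 to 177) and 157 CPM (144 to 171). Cux2 was thus lower in nuclei rich in Zfpm2 in both libraries, with intervals apart. Cux1 was lower in the same way, from 359.9 to 241 CPM and from 319 to 228 CPM, and Pou3f2 from 81.1 to 40.8 and from 77.2 to 45.9 CPM. Rorb was higher in Zfpm2-rich nuclei, at 249 against 153 CPM and at 223 against 166 CPM. At 1 and 2 Zfpm2 UMIs Rorb was at 231 and 164 CPM in wildtype-labelled and at 200 and 160 CPM in knockout-labelled nuclei. It thus did not rise step by step. Cux2 was there at 194 and 176 CPM and at 149 and 156 CPM, so its largest step lay between 0 and 1 Zfpm2 UMI. The Zfpm2-rich nuclei were also deeper, with median UMIs of 3696 against 2042 and 4623 against 2246, and the part of depth in these levels was not tested. Tbr1 showed no such step, at 46.9 and 49.8 CPM in wildtype-labelled and 46.2 and 43.1 CPM in knockout-labelled nuclei with 0 and with 3 or more Zfpm2 UMIs. From 0 to 3 or more Bcl11b UMIs, Cux1 also fell, from 358 to 264 and from 307 to 232 CPM. Pou3f2 fell there from 78.2 to 58.0 and from 70.9 to 46.8 CPM, so neither fall was particular to Zfpm2. Rorb went from 157 to 236 and from 204 to 218 CPM. Cux2 went from 221 to 215 and from 203 to 186 CPM, with intervals that overlapped. Bcl11b-rich nuclei were deeper too, with median UMIs of 3205 against 1994.5 and 4202.5 against 2224.

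**Figure D2:**
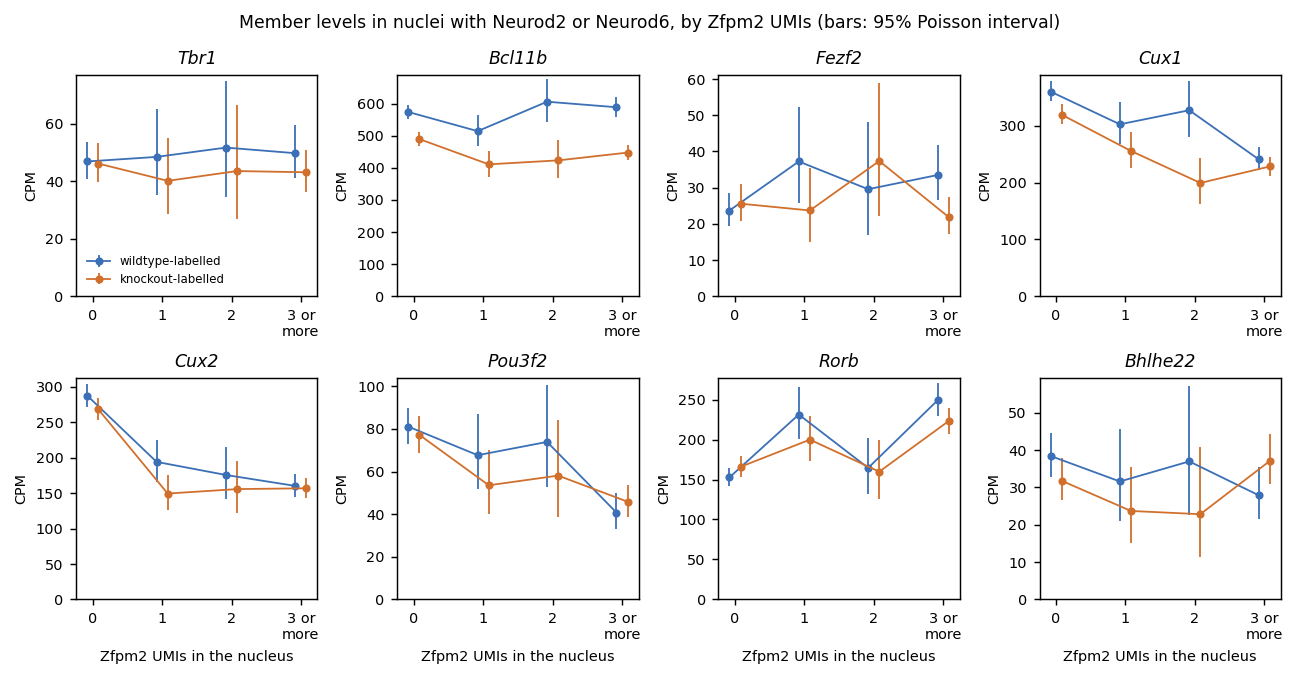
Level of each other member (CPM, from 0) in nuclei with Neurod2 or Neurod6 that hold 0, 1, 2, or 3 or more Zfpm2 UMIs, for each library, with 95% Poisson intervals as bars. Cux1, Cux2 and Pou3f2 are lowest or near their lowest where Zfpm2 is highest, while Rorb is higher at 3 or more Zfpm2 UMIs than at 0.

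Across 20 clusters with at least 50 nuclei in each library, each member had its own distribution, in much the same order in both libraries. The correlation of log2(CPM + 1) over the 20 clusters between libraries ranged from 0.78 for Bhlhe22 to 0.98 for Zfpm2, as a description, since both libraries share the cluster definitions. These levels are compared within a gene only, because the 3′ assay does not give levels per length. In such sums, fewer nuclei with the RNA and less RNA per nucleus cannot be told apart.

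Tbr1 was highest in the Tg/Sox5 cluster, at 94.3 CPM (78.5 to 112) and 100.2 CPM (83.5 to 119), in a cluster led by 6530403H02Rik and Tafa1, at 82.4 and 103 CPM, and, at 104 and 70.4 CPM, in that shallow cluster. These 3 did not differ beyond their intervals. It stood at 48.8 and 80.3 CPM in the Unc5d/Svet1 cluster and between 8.43 and 27.2 CPM in the forebrain inhibitory-like and thalamic-like clusters. Fezf2 was highest in the same Tg/Sox5 cluster, at 77.7 and 69.2 CPM, then in the Slit3/Ifi203 cluster, at 53.7 and 62.2 CPM. It was present in intermediate progenitor-like nuclei, which make cortical neurons, at 46.5 and 42.5 CPM, and in the radial glia-like cluster 5, at 28.6 and 33.9 CPM. In the Rarb/Isl1 cluster it had 0 UMIs and 1 UMI.

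Bcl11b had its highest levels outside the Neurod-high clusters. It stood at 1992 CPM (1852 to 2139) and 1931 CPM (1771 to 2101) in the Rarb/Isl1 cluster, and at 1685 and 1463 CPM in a forebrain inhibitory-like cluster led by Dlx6os1 and Syt6. Rarb and Isl1 are known from striatal projection neurons, but no list of striatal markers was used and the cluster stayed unnamed. The Tg/Sox5 cluster followed with 1040.2 CPM (986 to 1097) and 948 CPM (895 to 1004), each of these 3 above the next in both libraries. The Bcl6/Abcc8 and Unc5d/Svet1 clusters held 533 and 483 CPM, and 580.2 and 568 CPM.

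Zfpm2 had a wide range. It stood at 2973 and 3016 CPM in the brainstem inhibitory-like cluster led by Pax7 and Otx2, at 1585 and 1818 CPM in the Slit3/Ifi203 cluster and at 1139 and 983 CPM in the Tg/Sox5 cluster. A vascular and meningeal-like cluster with fibroblast genes came next, at 665 and 683 CPM. The level was lowest in the Bcl6/Abcc8 cluster, with 24 UMIs (29.5 CPM) and 6 UMIs (11.6 CPM). The Neurod-high clusters thus held both high and low Zfpm2 levels.

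Cux1 and Cux2 were low in the Tg/Sox5 and Slit3/Ifi203 clusters and high both within and outside the Neurod-high clusters. Cux1 stood at 76.9 and 94.7 CPM in the Tg/Sox5 cluster and at 91.5 and 42.6 CPM in the Slit3/Ifi203 cluster, its lowest 2 clusters in both libraries. It stood at 509.6 and 568 CPM in the Bcl6/Abcc8 cluster, at 544 and 524 CPM in the Lhx6-led forebrain inhibitory-like cluster and at 522 and 443 CPM in the radial glia-like cluster 5, and these 3 were not apart beyond their intervals in the wildtype-labelled nuclei. Cux2 was highest in that Lhx6-led cluster, at 664 and 607 CPM, and in the Unc5d/Svet1 cluster, at 541 and 573 CPM. The Bcl6/Abcc8 cluster followed with 372 and 367 CPM, and the Tg/Sox5 cluster held 55.1 and 60.5 CPM. Lhx6 marks interneurons that arise in the ventral forebrain.

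Pou3f2 stood at 119.7 and 139.9 CPM in the Unc5d/Svet1 cluster and at 117 and 138 CPM in intermediate progenitor-like nuclei, against 30.2 and 35.0 CPM in the Tg/Sox5 cluster. It was as high in the shallow cluster led by haemoglobin genes, at 119.5 and 140.8 CPM. A forebrain inhibitory-like cluster led by Sox1ot held 108 and 131 CPM, not apart from these beyond the intervals. Rorb was high in the Tg/Sox5 cluster, at 492 and 384 CPM, and low in the Slit3/Ifi203 cluster, at 22.1 and 22.9 CPM (7 UMIs in each library). It stood at 44.0 and 45.0 CPM in the Unc5d/Svet1 cluster and at 187 and 209 CPM in the Bcl6/Abcc8 cluster. Rorb was also present in the brainstem inhibitory-like cluster, at 305 and 387 CPM, and in the thalamic-like cluster, at 273 and 203 CPM. Bhlhe22 was highest in the Slit3/Ifi203 cluster, at 114 (79.6 to 157) and 111 CPM (77.1 to 156), against 30.2 and 34.2 CPM in the Tg/Sox5 cluster.

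**Figure D3:**
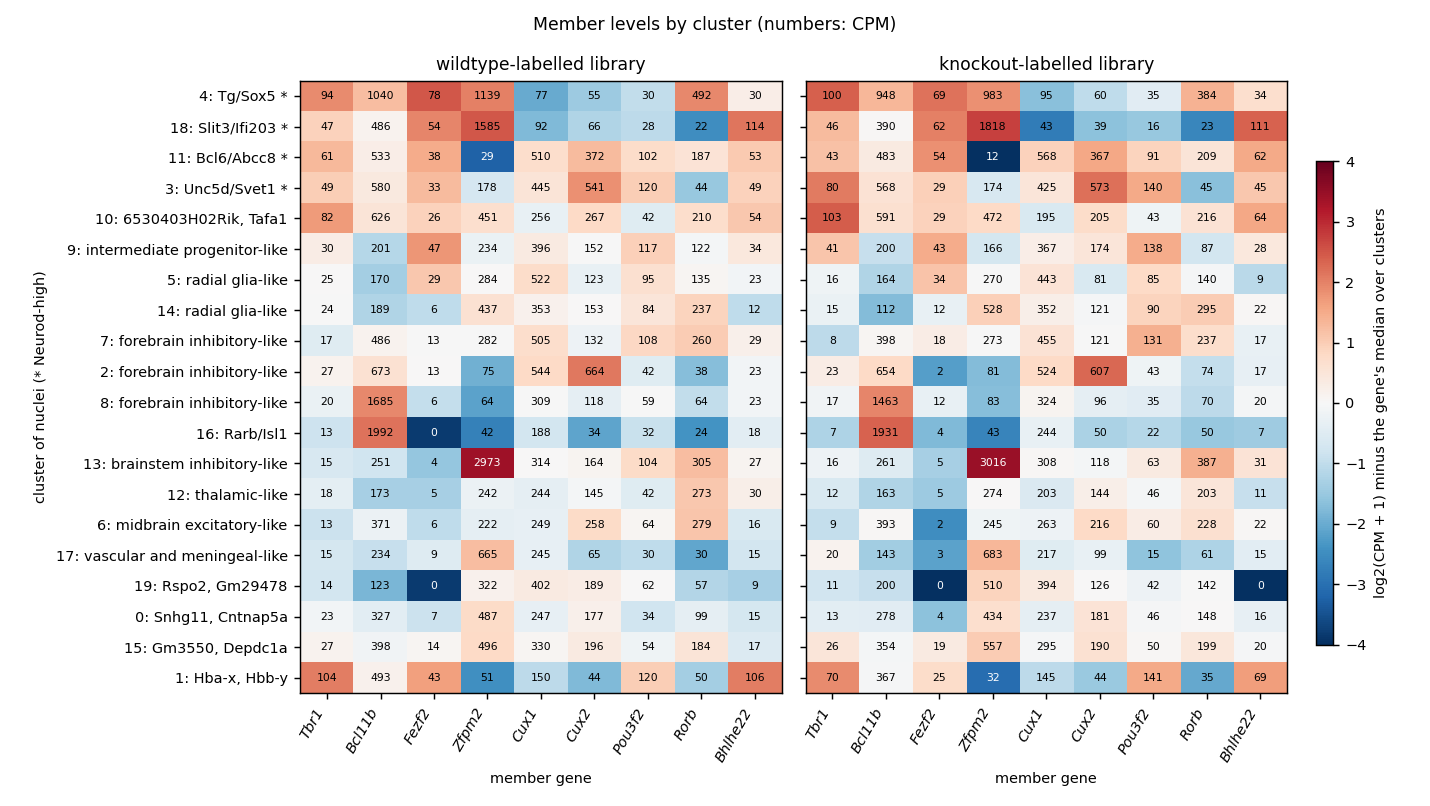
Level of each member in 20 clusters and both libraries: numbers are CPM, and colour is log2(CPM + 1) minus the gene's median over the clusters. Asterisks mark the Neurod-high clusters, among which Zfpm2 runs from 1585 and 1818 CPM in the Slit3/Ifi203 cluster to 29.5 and 11.6 CPM in the Bcl6/Abcc8 cluster, while Bcl11b is highest outside them.

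Genes whose level over the 20 clusters was most like a member's were ranked by the lower Pearson r of the 2 libraries among 10450 genes. The points share libraries and cluster definitions, so r is a description. Zbtb18 was nearest to Tbr1 (r = 0.83 and 0.83) and to Fezf2 (0.74 and 0.78), and Islr2 to Bcl11b (0.83 and 0.79). The POU-domain gene Pou3f3 was nearest to Pou3f2 (0.78 and 0.85), Nrcam to Rorb (0.68 and 0.74) and 2900022M07Rik to Zfpm2 (0.70 and 0.69). The nearest to Cux1 and Cux2 were the opposite-strand genes Gm16599 (0.83 and 0.89) and Gm3970 (0.89 and 0.89), which overlap them. Between members, Tbr1 with Fezf2 reached 0.79 and 0.71 and Cux1 with Cux2 0.69 and 0.66, while Zfpm2 with Cux1 was at -0.34 and -0.42. Zfpm2 was at -0.40 and -0.39 with the deep-layer member Bcl11b, and at only -0.13 and -0.24 with Cux2. Over 6 marker classes, a coarser grouping set by counted markers, the nearest genes were others, among them Gm36756 and 4930545L23Rik for Tbr1, Gm11362 and Phip for Bcl11b, Lix1 and Itpk1 for Fezf2, and Hs3st3b1 and Ttc7 for Zfpm2. There they were Sox2ot and Gm8899 for Cux1, Grip1os2 and Frmd5 for Cux2, Tnpo2 and Nudcd1 for Pou3f2, Elovl6 and Fhod3 for Rorb, and Dip2a and Matk for Bhlhe22. With 6 points and 10450 genes ranked, the top genes reach a high r by the ranking alone. These names therefore describe the ranking only.

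A list of 32 other genes, 20 layer and area factors and 12 genes of neuronal maturation, was set against each member in the selected nuclei. Zfpm2 was found with 4 of 32 above expectation (8.46% of all genes tested) and with 3 below (1.36%). It was below with Pou3f1, in 64 nuclei against 79.9 and 73 against 94.5, ratios of 0.80 (0.62 to 1.02) and 0.77 (0.61 to 0.97). It was above with the deep-layer genes Crym at 1.29 and 1.41 and Otx1 at 1.27 and 1.15, with intervals that reached below 1.

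Cux2 was above with 5 of 32 (8.3% of all genes) and below with 2 (2.33%). It was above with Unc5d, a guidance receptor of newborn upper-layer neurons, in 583 nuclei against 436.5 and 545 against 426.8, ratios of 1.34 (1.23 to 1.45) and 1.28 (1.17 to 1.39). It was below with Ldb2, a cofactor of deep-layer neurons, at 0.86 in both, and with Crym at 0.80 and 0.86. Cux1 was above with 4 (7.45%), led by Etv1 at 1.22 and 1.21 and Pou3f3 at 1.12 and 1.12, and below with 1 (1.78%), Camk2b at 0.87 and 0.90. The next lowest, Ldb2, was at 0.905 and 0.906.

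Rorb was above with 4 of 32 (14.9%), led by Ldb2 at 1.31 and 1.21 and Etv1 at 1.37 and 1.18, and below with 1 (1.13%), Unc5d at 0.82 and 0.88. Cux2 lay on the other side of 1 for both Ldb2 and Unc5d. Crym was at 0.91 and 0.63 with Rorb, on 16 and 10 nuclei. Pou3f2 was above with 10 (24.9%), led by Pou3f3 at 1.35 and 1.28 and Eomes, the factor of intermediate progenitors, at 1.25 and 1.78, and below with none (0.982%). Its lowest were Syt1 at 0.90 and 0.87 and Grin2b at 0.91 and 0.91, both genes of maturing synapses.

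Tbr1 was above with 7 of 31 tested (12.6%), among them Id2 at 1.19 and 1.16, and below with none (4.29%). Its lowest were Otx1 at 0.80 and 0.93 and Lmo4 at 0.96 and 0.93. Fezf2 was above with 11 of 30 (19.5%), led by Rnd2 at 1.42 and 1.60 and Id2 at 1.24 and 1.45, and below with none (4.68%), its lowest being Ski at 0.995 and 0.987. Bcl11b was above with none of 32 (2.57%) and below with 1 (4.54%), Nr4a2, at 0.87 in both, with Eomes next at 0.89 and 0.91. Its highest were Snap25 at 1.10 and 1.09 and Id2 at 1.073 and 1.068. Bhlhe22 was above with 3 of 31 (12.7%), led by Rnd2 at 1.41 and 1.28 and Id2 at 1.21 and 1.20, and below with 1 (4.81%), Nr4a2 at 0.70 and 0.82, on 11 and 14 nuclei. Foxp2 was at 0.94 and 0.85 with it.

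Between the libraries no member differed by 1.5-fold or more among the selected nuclei, where 2.09% of 12787 genes were higher and 0.837% lower in those labelled knockout by that rule. None did among all kept nuclei, against 2.12% and 0.605% of 15528 genes, or among nuclei with neither Neurod gene, against 1.88% and 0.829% of 13629. The members' median log2 ratio was -0.13 in the selected nuclei, beside -0.02 over all genes tested. In the selected nuclei the largest shift was in Bcl11b, with 4726 UMIs (574 CPM, 558 to 591) against 4048 UMIs (462 CPM, 447 to 476) in the nuclei labelled knockout. The log2 ratio was -0.31 (-0.38 to -0.25). The Bcl11b intervals did not overlap. In all kept nuclei Fezf2 was at -0.37 (-0.58 to -0.15), Tbr1 at -0.31 (-0.47 to -0.15) and Bcl11b at -0.29 (-0.34 to -0.25). In nuclei with neither Neurod gene Fezf2 was at -0.56 (-0.91 to -0.20), Tbr1 at -0.53 (-0.80 to -0.27), Bhlhe22 at -0.45 (-0.72 to -0.18) and Bcl11b at -0.25 (-0.31 to -0.19), so Bcl11b did not have the largest shift in those sets.

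Cux1 was at 318 and 271 CPM, a log2 ratio of -0.23 (-0.31 to -0.15), and Cux2 at 234 and 207 CPM, at -0.18 (-0.27 to -0.08). Zfpm2 was at 485 and 513 CPM, at 0.08 (0.02 to 0.14), and Rorb at 189 and 191 CPM, at 0.01 (-0.09 to 0.11). Tbr1 was at 48.2 and 44.2 CPM, at -0.12 (-0.33 to 0.08). Fezf2 was at 28.3 and 24.6 CPM, Pou3f2 at 67.8 and 61.8, and Bhlhe22 at 34.6 and 32.4, with intervals of the ratio that held 0.

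The shift in Bcl11b was smaller within the Neurod-high clusters. There it stood at 741 CPM (2059 UMIs) and 706 CPM (1687 UMIs), a log2 ratio of -0.07 (-0.16 to 0.02), beside -0.31 in all selected nuclei. Over all nuclei of single clusters it was at -0.13 (-0.25 to -0.02) in the Tg/Sox5 cluster, at -0.03 in the Unc5d/Svet1 cluster, at -0.14 in the Bcl6/Abcc8 cluster and at -0.32 (-0.68 to 0.04) in the Slit3/Ifi203 cluster. Tbr1, at -0.12 in the selected nuclei, was at 0.25 (-0.05 to 0.55) in the Neurod-high clusters, with the other sign. Fezf2 and Bhlhe22 also had the other sign there, at 0.18 (-0.18 to 0.53) and 0.17 (-0.19 to 0.54), and all these intervals held 0. The selected nuclei of the 2 libraries differed in the share that lay in these clusters, 37.1% and 33.2%. They also differed in an unnamed cluster led by Snhg11, which held 204 of 2779 and 376 of 2369 selected nuclei. Over all its nuclei Bcl11b was at 327 and 278 CPM, Tbr1 at 22.7 and 13.4 CPM and Fezf2 at 6.70 and 4.05 CPM. The part of these shares in the ratios was not tested.

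**Figure D4:**
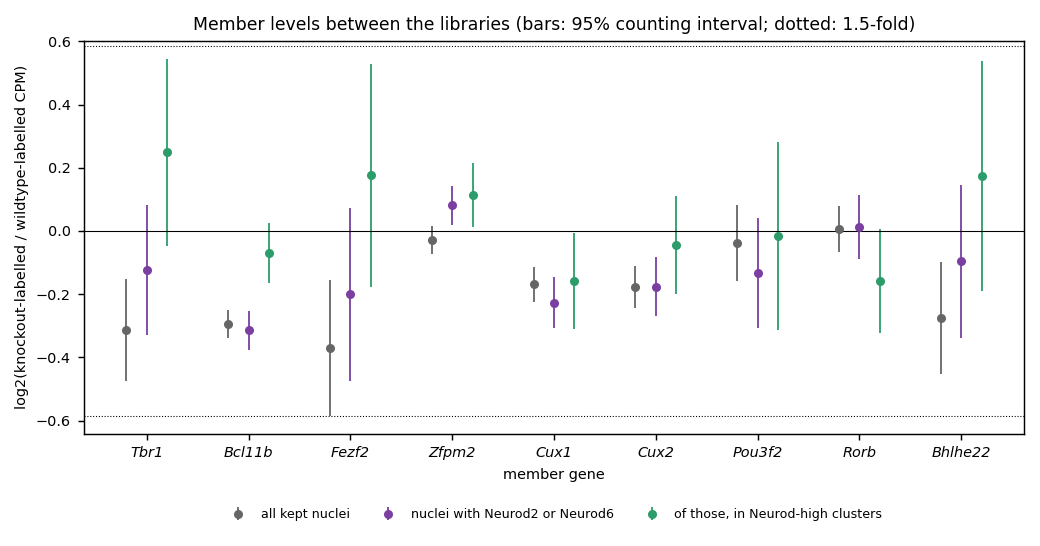
Log2 ratio of each member's CPM, knockout-labelled over wildtype-labelled, in all kept nuclei, in nuclei with Neurod2 or Neurod6, and in those of the Neurod-high clusters, with 95% counting intervals as bars and dotted lines at 1.5-fold. Every point lies within the dotted lines, and Bcl11b moves from -0.31 to -0.07 when only Neurod-high clusters are counted.

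Over the 4 Neurod-high clusters taken singly, a few ratios stood apart from 0. Rorb in the Tg/Sox5 cluster was at -0.36 (-0.53 to -0.18), from 652 and 483 UMIs, and Zfpm2 there at -0.21 (-0.32 to -0.10). Tbr1 in the Unc5d/Svet1 cluster was at 0.72 (0.17 to 1.27), on 51 and 66 UMIs. Cux1 in the Slit3/Ifi203 cluster was at -1.10 (-2.17 to -0.11), on 29 and 13 UMIs, and Zfpm2 in the Bcl6/Abcc8 cluster at -1.34 (-2.92 to -0.01), on 24 and 6. These were picked out of 36 values after they were seen, and they have no replicate.

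In nuclei with no UMI of Neurod2 or Neurod6, grouped by counted markers, Zfpm2 in the forebrain inhibitory class stood at 79.5 and 144 CPM, at 0.85 (0.42 to 1.30) on the log2 scale. When the class was taken from named clusters the levels were 133 and 145 CPM, so this difference depended on how the class was drawn. Bcl11b in the class was at 834 and 773 CPM.

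The shallow cluster set the members apart by another pattern. It was led by haemoglobin and ribosomal protein genes, had no cell type name and held 631 and 972 nuclei with median depths of 740.0 and 706 UMIs. Against all other nuclei, Bhlhe22 was 3.76-fold and 2.91-fold higher in it, Tbr1 2.91-fold and 2.42-fold, Pou3f2 1.95-fold and 2.41-fold and Fezf2 2.004-fold and 1.51-fold. The Fezf2 interval held the level elsewhere in the nuclei labelled knockout. These are the 4 shortest members, with genomic lengths of 3.34 to 11.2 kb. The 5 others, of 93.8 to 452 kb, stood at 0.959 and 0.870 of the level elsewhere for Bcl11b, 0.465 and 0.503 for Cux1, 0.291 and 0.201 for Rorb, 0.202 and 0.225 for Cux2, and 0.109 and 0.0685 for Zfpm2. Its nuclei made up 9.44% and 14.6% of the libraries, and the part of this cluster in the ratios over all kept nuclei was not tested.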

How the data were processed

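Single-nucleus RNA-seq was read from 2 deposited matrices of raw UMI counts, 1 library per genotype. The counts came from Cell Ranger 6.1.1 per the file headers, while the submitters' processing notes name Cell Ranger 3.0.1, STAR and the GRCm39 build. The annotation, and whether introns or strand were used, are not given in the sources used here. The lowest total of a barcode was 500 UMIs in each library. By identifier, 54749 of 55416 genes matched GENCODE M39.

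Kept nuclei had at least 500 genes and at most 5% mitochondrial UMIs. Scrublet's automatic threshold marked 0 nuclei in each library, so it had not worked. No doublet was removed, and an alternative removed the 8% of highest scores. Nuclei were clustered jointly (scanpy 1.11.5, 3220 variable genes, 30 components, Leiden resolution 1). A cluster was named from at least 3 markers 2-fold above the other clusters, 1 of them 4-fold. Neurod-high clusters and clusters of low median depth were left unnamed. Marker classes needed at least 2 distinct markers. Pairs used 10 depth bins, with an expected count of at least 10 for listed genes, and libraries were compared for genes with at least 100 UMIs over both. Interval and pair computations were tested on simulated data. Python 3.11.15, numpy 2.4.6 and scipy 1.17.1 were used.

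Named genes were the members, the 2 genes most like each, with at least 200 UMIs per library, and for each member the 2 highest and 2 lowest of the listed genes. Some genes that this rule names are not reported here. Likeness over clusters, and all values in Neurod-high clusters, were added after the data were seen. Alternatives changed the gene minimum, mitochondrial limit, doublets, selection, depth bins and scaling. Members and lists were chosen with earlier results of these data known.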

Additional observations from a re-analysis of the deposited data

How the results depend on the processing

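No paired analysis was possible because each genotype has 1 library, and no replicate could be left out. The difference in the share of selected nuclei, -6.10 points, kept its direction in every alternative run, at -2.66 with at least 2 UMIs of Neurod2 and Neurod6 together, -1.19 with at least 1 UMI of each, and -3.61 after thinning to 1000 UMIs. The share itself in the knockout-labelled library, 35.5%, was 31.7% with a minimum of 200 genes, 38.6% with 1000 genes, 37.5% with a mitochondrial limit of 1%, 34.3% without the 8% highest Scrublet scores, 14.6% with at least 2 UMIs, 8.92% with 1 UMI of each, 31.5% without nuclei holding 2 or more inhibitory markers, and 19.2% after thinning. Without depth bins, 24 pairs were above and 0 below expectation, and Zfpm2 with Cux2 in the knockout-labelled library turned to 1.06. The 4 pairs below became 7 without nuclei holding inhibitory markers, 7 after thinning and 8 in Neurod-high clusters. No share over all genes is given for these settings, so the counts are not read as a change in the members. No member passed 1.5-fold in all kept or selected nuclei under any setting run. With a minimum of 20 UMIs per gene, 9.26% of genes in all kept and 10.1% in selected nuclei passed 1.5-fold in either direction. Of 90 ratios in all kept nuclei under alternatives, 90 stayed within their interval, and of 90 in selected nuclei 76 did. Counts limit most what can be said of Fezf2, Tbr1 and Bhlhe22, which had the fewest UMIs.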
